A study of Mus musculus with 6 samples.

Results

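The genes described here are the 100 microRNA (miRNA) genes with the highest mean log2 value over all 6 arrays, out of 529 miRNA genes measured and 23185 named probe sets in all. Members were chosen by the gene symbol of their probe set, leaving out symbols of miRNA host genes, and by their mean level alone. The difference between groups was not part of the rule. The mean covers both groups, though, so high values in either group can bring a gene in. The study measured total RNA on Affymetrix arrays from a mouse group 2 innate lymphoid cell (ILC2) line of the C57BL/6J strain. ILC2s belong to the lymphoid lineage, carry no antigen receptor and release type 2 cytokines. All cells were grown with IL-2 and IL-33, each at 10 ng/ml, and all received a LentiV2CRISPRGFP construct by lentivirus. In 3 samples the guide RNA was directed at Myc (the knockout-labelled arrays below), and in the 3 control samples it was a non-targeting guide. Cells with GFP were sorted 6 days after transduction, so a sample is a pool of sorted cells. The labels do not say how many guides were used, or whether the replicates came from separate cultures, so p-values measure the scatter among these 6 arrays and that scatter may be technical.

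miRNAs are short RNAs that guide Argonaute proteins to partly matching messenger RNAs and lower their translation or stability. They are cut from a longer primary transcript, first in the nucleus by Drosha with Dgcr8 and then in the cytoplasm by Dicer, and many lie inside other genes or in clusters that share a transcript. Bases 2 to 8 of the mature miRNA, the seed, determine most of its targets, and miRNAs with the same seed form a family. MYC is known as an activator of the miR-17-92 cluster and as a repressor of several other miRNAs, among them let-7 and miR-15a. A probe set for a miRNA gene on an array of total RNA can take up signal from primary, precursor and host transcripts, so the values below are levels of RNA from the gene and not of the mature miRNA.

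Mature sequences were available in RefSeq (GRCm38.p6) for 86 of the 100 genes, and those on which the results turn are shown with the seed in capitals. The first set holds the 1 member that passed the test, Mir142, whose hairpin lies at chr11:87756864-87756927 on the plus strand, within no other gene of the RefSeq table.
mmu-miR-142a-5p: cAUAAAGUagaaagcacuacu
mmu-miR-142a-3p: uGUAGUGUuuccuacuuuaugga
In the whole Mir142 hairpin of 64 bases, the same arms are in capitals and the flanks and loop in lower case.
Mir142 hairpin: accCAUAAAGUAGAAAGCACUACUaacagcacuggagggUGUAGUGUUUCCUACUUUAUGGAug

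The second set holds members whose differences were among the largest without passing the test. They come from Mir1938 (chr12:40222782-40222803, minus strand), Mir680-1 (chr6:129691541-129691561, plus strand), Mir5125 (chr17:23823339-23823358, plus strand) and Mir704 (chr6:47803590-47803610, minus strand).
mmu-miR-1938: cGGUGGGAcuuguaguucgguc
mmu-miR-680: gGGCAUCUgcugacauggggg
mmu-miR-5125: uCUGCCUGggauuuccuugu
mmu-miR-704: aGACAUGUgcucugcuccuag

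The third set holds members that share a seed. Over 135 mature sequences of members there were 131 different seeds, and 4 seeds occurred in more than 1 member gene. The seed AUUGCAC is that of Mir25 and Mir92b, UCACAGU that of Mir27a and Mir27b, ACAUUCA that of Mir181c and Mir181d, and CACUGAG that of Mir674 and Mir3473d. Lined up at the first base without gaps, the miR-27 sequences differ at 1 of 21 letters and those of miR-25 and miR-92b at 6 of 22. Those of miR-181c and miR-181d differ at 11 of 22, and those of miR-674 and miR-3473d at 15 of 22.
mmu-miR-25-3p: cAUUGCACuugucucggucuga
mmu-miR-92b-3p: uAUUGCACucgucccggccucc
mmu-miR-27a-3p: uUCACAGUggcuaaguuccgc
mmu-miR-27b-3p: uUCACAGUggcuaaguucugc
mmu-miR-181c-5p: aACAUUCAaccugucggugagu
mmu-miR-181d-5p: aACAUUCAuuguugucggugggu
The last set holds members from loci known to be regulated by MYC or prominent in lymphocytes.
mmu-miR-18a-5p: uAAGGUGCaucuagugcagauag
mmu-miR-15a-5p: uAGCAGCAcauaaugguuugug
mmu-let-7i-5p: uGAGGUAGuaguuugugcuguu
mmu-miR-155-5p: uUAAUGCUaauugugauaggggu

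The RNA signal of Myc was not lower under the guide directed at it. Myc had log2 values of 9.27 to 9.39 in controls and 9.55 to 9.79 in the knockout-labelled arrays, higher without overlap. The difference of 0.36 ± 0.080 did not pass (limma's adjusted p = 0.127). MYC protein was not measured here, so these values do not show whether it was lost. Directions below therefore rest on the labels. Of the ILC2 markers, Il2ra, Icos, Gata3 and Il7r had mean log2 values of 11.49, 9.61, 9.44 and 9.31, while Rora spanned 3.68 to 4.30 and Thy1 3.02 to 3.38 over the arrays, against array medians of 3.27 to 3.34 over all 25206 probe sets. Markers of B cells (1.59 to 2.5), of ILC3s (0.79 to 1.74) and of NK cells and ILC1s (1.90 to 3.33) were near or below the array medians. Among T cell markers Cd3e and Cd4 were at 2.07 and 2.18, but Cd3g and Cd8a at 5.26 and 4.83, and among myeloid markers Itgam was at 6.30. The mean log2 level of the 6 T cell markers was 3.41 to 3.59 in controls and 3.35 to 3.54 in the knockout-labelled arrays, and that of the 4 myeloid markers was 3.38 to 3.43 and 3.11 to 3.33. No marker of these lists passed the test, and their part in the results was not tested.

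**Figure D1:**
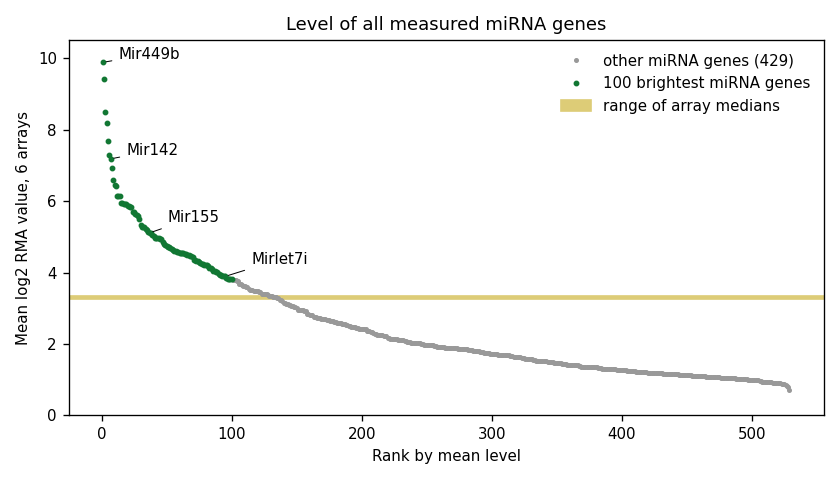
Mean log2 RMA value over 6 arrays (vertical axis) of all 529 measured miRNA genes against their rank (horizontal axis), with the 100 brightest in green and the other 429 in grey. The band marks the range of array medians, 3.27 to 3.34, and all 100 members lie above it.

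The level of the members spanned 3.81 to 9.88 on the log2 scale, and their median was 4.72, against 1.66 for the other 429 miRNA genes. All 100 lay above the array medians, 23 lay above the upper quartiles of the arrays (5.69 to 5.78), 14 had a mean over 6 and 60 had a mean under 5. The last gene inside the limit was Mir669m-1 at 3.81, and the first outside was Mir149 at 3.80. Ranking on the 3 control arrays alone kept 97 of the 100. The 3 that dropped out, Mir669m-1, Mir7-1 and Mir665, had control means of 3.41, 3.61 and 3.67 and were members only through their higher values in the knockout-labelled arrays, so their differences are given below as a description. These levels chose the members and are given as a description; a level also depends on the probes of its probe set.

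Mir142, a miRNA gene expressed across the blood cell lineages, rose in the knockout-labelled arrays and was the only member that passed the test. Its log2 values were 6.85, 6.58 and 6.86 in controls and 7.55, 7.59 and 7.67 in the knockout-labelled arrays. All 3 values of the second group lay above all 3 of the first. Means were 6.76 ± 0.16 and 7.60 ± 0.062 (SD, n = 3 arrays each), a log2 difference of 0.84 ± 0.092 (SE) or 1.79-fold, with a 95% confidence interval of 0.62 to 1.06 on the log2 scale (limma's adjusted p over all genes = 0.0298). In samples of pooled cells, more cells with the RNA and more RNA per cell cannot be told apart. The difference was 0.75 to 0.89 when each array was left out in turn, but limma's adjusted p was then 0.105 to 0.157, so with 5 arrays Mir142 did not pass.

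Counted over the list, 1 of 100 members rose and 0 fell past limma's adjusted p of 0.05, against 0.254% of all named probe sets that rose and 0.198% that fell. At an unadjusted p under 0.05 in limma, 23 members were higher and 6 lower in the knockout-labelled arrays. The background shares over all named probe sets were 6.97% and 7.91%. Among 10103 other genes with means in the range of the members they were 7.62% and 14.8% (0.455% in each direction past the adjusted threshold), and among the other 429 miRNA genes 5.36% and 2.8%, with 0 past the adjusted threshold. With median centring of the arrays the split over all named probe sets was 5.24% and 9.61%, and 21 members were higher and 7 lower. Groups did not overlap for 23 members on the higher side and 8 on the lower side. The background shares were 9.25% and 10.6% over all named probe sets, 10.9% and 20.1% over other genes in the range of level, and 6.29% and 3.5% over the other miRNA genes. The 23 at the unadjusted threshold include Mir669m-1, Mir7-1 and Mir665, which were members only through the group where they were high. The 23 without overlap on the higher side include the same genes. Among the 100 genes that rank highest on the control arrays alone, 20 were higher and 7 lower at the unadjusted threshold. Overlap of the groups was not counted for that ranking.

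The median log2 difference of the members was 0.101 (quartiles −0.053 and 0.251), and 66 of 100 were positive. Over all named probe sets the median was 0.0077 with 52.2% positive, over genes in the same range of level −0.035 with 40.1% positive, and over the other miRNA genes 0.010 with 53.4% positive. The 66 include Mir669m-1, Mir7-1 and Mir665, members only through the knockout-labelled arrays. Among the 100 genes ranked on the control arrays alone, 63 were positive. Their median stood 0.0791 above that of all named probe sets, against 0.0933 for the members. Array by array, the median log2 value of the members was 4.58, 4.67 and 4.66 in controls and 4.79, 4.82 and 4.94 in the knockout-labelled arrays. These groups did not overlap. Over all named probe sets the array medians were 3.32, 3.35 and 3.35 against 3.38, 3.36 and 3.35. The median deviation of the members from their own gene means was −0.098, −0.019 and −0.011 in controls. It was 0.089, 0.016 and 0.026 in the knockout-labelled arrays. By that measure the shift was uneven and was largest in replicate 1 of each group. The median spread between arrays of a group was 0.161 (SD, log2) for the members and 0.0909 for genes in the same range of level. Across the 100 genes, difference and level had a Pearson r of −0.03, a description over genes that share the same 6 arrays. By position, the median difference was 0.0921 for the 48 members inside a gene of the same strand and 0.0992 for the 28 inside no gene.

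**Figure D2:**
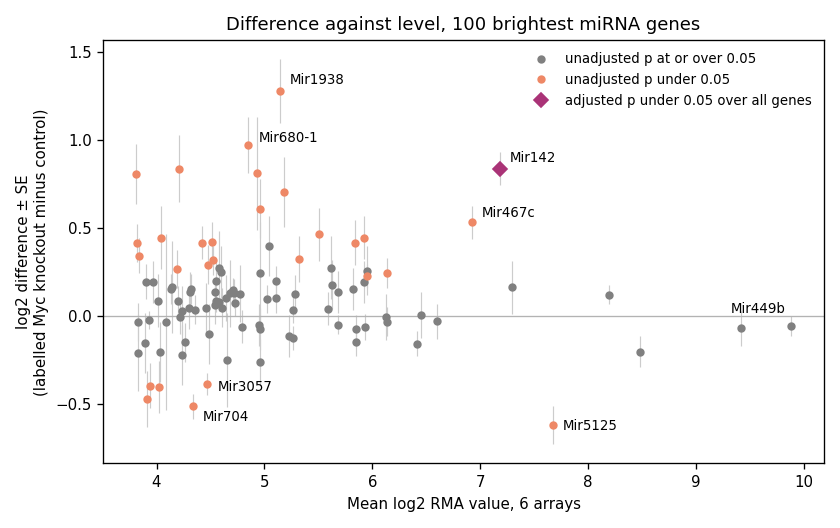
Log2 difference ± SE (vertical axis, knockout-labelled arrays minus control, n = 3 each) against the mean log2 RMA value over 6 arrays (horizontal axis) for the 100 members. Mir142, the diamond at 0.84, is the member that passed over all genes, and orange points mark the others with an unadjusted p under 0.05, of which 22 lie above 0 and 6 below.

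Several members with positive differences did not pass, and those of Mir1938 and Mir680-1 were larger than that of Mir142. Mir1938, a miRNA gene inside Ifrd1 on the same strand, had log2 values of 4.48, 4.53 and 4.50 in controls and 5.35, 6.07 and 5.95 in the knockout-labelled arrays. Every value of the second group was higher, and the difference was 1.28 ± 0.18 (limma's adjusted p = 0.0520). Controls were tightly grouped (SD 0.0233), while the knockout-labelled arrays were spread (SD 0.387). Mir680-1 had values of 4.64, 4.25 and 4.20 against 5.48, 5.05 and 5.48, again without overlap, and a difference of 0.97 ± 0.16 (limma's adjusted p = 0.0767). Mir467c, which lies within Sfmbt2 (difference of the host −0.11 ± 0.078), had values of 6.54, 6.62 and 6.78 against 7.33, 7.11 and 7.10, a difference of 0.53 ± 0.094 (limma's adjusted p = 0.0833). Both symbols belong to families of similar copies that a probe set can share, so these values are uncertain.

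The 6 most positive differences also included Mir28b, Mir669m-1 and Mir339, none of which passed. Mir28b stood at 3.82, 3.71 and 3.85 in controls and 5.06, 4.28 and 4.55 in the knockout-labelled arrays, and the groups did not overlap. Mir669m-1, also within Sfmbt2, had 3.68, 3.13 and 3.40 against 4.36, 3.94 and 4.34, without overlap, and would not be a member by its control values. Mir339 had 5.03, 4.42 and 4.11 against 5.82, 4.79 and 5.38, and here the groups overlapped. Their log2 differences were 0.84 ± 0.19, 0.81 ± 0.17 and 0.81 ± 0.32, and limma's adjusted p was 0.130, 0.117 and 0.311.

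The other members on the higher side at an unadjusted p under 0.05 had log2 differences of 0.23 to 0.70, with limma's adjusted p of 0.131 to 0.334. Mir5129, inside the transcription factor gene Zeb2, had 4.45, 5.12 and 4.92 in controls and 5.80, 5.31 and 5.50 in the knockout-labelled arrays, without overlap, while Zeb2 differed by 0.10 ± 0.12. Mir344d-2, in no gene, had 4.52, 4.74 and 4.70 against 5.58, 4.91 and 5.30, also without overlap. Mir761 had 5.63, 5.69 and 5.77 against 6.40, 5.98 and 6.05, a difference of 0.45 ± 0.12. Mir574 had narrow groups, 5.86, 5.87 and 5.77 against 6.10, 5.96 and 6.12, and its host Fam114a1 differed by −0.26 ± 0.11 in the opposite direction. Mir7-1, inside the splicing regulator gene Hnrnpk, and Mir330, inside Eml2, both differed by 0.42, and their groups did not overlap, though Mir7-1 is a member only through its knockout-labelled arrays. Mir486, a miRNA gene abundant in red cell precursors and muscle, had 4.17, 4.39 and 4.34 against 4.86, 4.78 and 4.52. It overlaps Mir3107, and Mir338 overlaps Mir3065, so for both the source of the signal is uncertain. Mir185, Mir338 and Mir1929 had groups that overlapped.

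On the lower side, no member passed. Mir5125, inside Srrm2, was the bright member with the largest negative difference: 7.92, 7.80 and 8.21 in controls and 7.42, 7.26 and 7.39 in the knockout-labelled arrays, without overlap. The difference was −0.62 ± 0.11 (limma's adjusted p = 0.0915). Mir704, inside Pdia4, had 4.65, 4.60 and 4.55 against 4.20, 4.02 and 4.04, a difference of −0.51 ± 0.072 with narrow groups that did not overlap (limma's adjusted p = 0.0514). Mir3057, inside Apba3, had 4.62, 4.74 and 4.65 against 4.33, 4.26 and 4.25, a difference of −0.39 ± 0.062 (limma's adjusted p = 0.0711), and its groups did not overlap either. Mir1931, Mir15a and Mir5103 differed by −0.47 ± 0.16, −0.41 ± 0.15 and −0.40 ± 0.13, with limma's adjusted p of 0.263, 0.284 and 0.25.

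**Figure D3:**
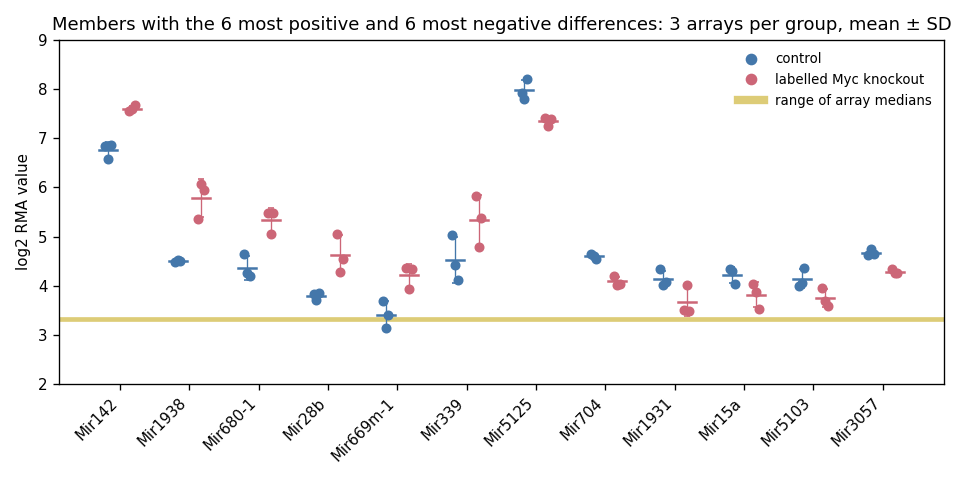
Log2 RMA values (vertical axis) of the 6 members with the most positive and the 6 with the most negative differences, with each of 3 arrays per group as a point and bars for mean ± SD. The band marks the range of array medians; Mir142 and Mir1938 show the 3 knockout-labelled arrays above all controls, and Mir5125 and Mir704 below.

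The number of members past the threshold moved with the setting. With an intensity trend in limma's prior variance, 4 members were higher and 3 lower, and a fit of only the brighter probe sets, from the median level up, gave 5 and 3. The added genes were Mir467c, Mir1938 and Mir680-1 on the higher side, with Mir669m-1 in the second setting, and Mir5125, Mir704 and Mir3057 on the lower side. When each array was left out, 0 members passed in 5 of the 6 fits, and only Mir1938 did (limma's adjusted p = 0.0308) once knockout-labelled replicate 1 was removed.

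Of the 10 brightest members, all but Mir142, Mir467c and Mir5125 had log2 differences of at most 0.20 in size, rounded to 2 decimals. None of these 7 passed. Mir449b, of the miR-34 and miR-449 seed family, had values of 9.87, 9.97 and 9.89 in controls and 9.87, 9.87 and 9.82 in the knockout-labelled arrays. Cdc20b, the gene that contains it, had a mean log2 value of only 3.08, and Mir449a, of the same seed family, 1.86. Which RNA gives the Mir449b signal was not tested. The difference of Mir449b was −0.06 (95% confidence interval −0.19 to 0.08). Mir5099 differed by −0.07 (−0.32 to 0.18) and Mir3064, inside the helicase gene Ddx5, by −0.20 (−0.42 to 0.01), the latter with groups that did not overlap. Mir692-1 had narrow groups, 8.12, 8.14 and 8.12 against 8.27, 8.27 and 8.21, that did not overlap, yet its difference of 0.12 ± 0.053 did not pass (limma's adjusted p = 0.355). Mir1195, Mir1956 and Mir5112 differed by 0.16, −0.03 and 0.01, and their groups overlapped.

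Of 35 miRNA genes prominent in lymphocytes, 34 were measured and 9 were members. Over the 34, 1 rose and 0 fell past the threshold, and 3 were higher and 0 lower by limma's unadjusted p of 0.05 (6.97% and 7.91% of all named probe sets), with a median difference of 0.063. Mir155, which supports lymphocyte activation and ILC2 responses, had values of 5.05, 5.13 and 4.86 in controls and 5.29, 5.18 and 5.16 in the knockout-labelled arrays. These did not overlap, and the difference of 0.20 ± 0.086 did not pass (limma's adjusted p = 0.352). Mir210, known as a hypoxia-induced miRNA, had 5.77, 5.82 and 5.87 against 6.38, 6.04 and 5.82, with overlap. Mir181c and Mir181d, which share a seed and a cluster, differed by 0.08 ± 0.051 and −0.07 ± 0.080. Mir99b differed by −0.06 ± 0.093, and its 3 control values were identical at 4.82.

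Of 15 genes in the miRNA clusters known to be induced by MYC, 14 were measured and only Mir18 and Mir25 were members. Mir18, from the miR-17-92 cluster on chromosome 14, hardly moved: 3.93, 3.98 and 3.93 in controls and 3.91, 3.93 and 3.93 in the knockout-labelled arrays, a difference of −0.02 (95% confidence interval −0.15 to 0.10). The 4 other measured genes of the cluster had lower levels and positive differences. Mir17 had 2.79, 2.91 and 3.07 against 3.28, 3.42 and 3.48, a difference of 0.47 ± 0.093 (limma's adjusted p = 0.0998), and Mir20a had 2.36, 1.97 and 2.26 against 2.66, 2.55 and 2.64 (0.42 ± 0.11, adjusted p = 0.169). Mir19b-1 and Mir19a differed by 0.38 ± 0.14 and 0.17 ± 0.087. Mir17, Mir20a and Mir19b-1 had groups that did not overlap, but their levels were near or below the array medians and none passed. Mir25, from the cluster inside Mcm7, had 4.32, 4.68 and 4.04 against 4.22, 3.96 and 4.20, and its neighbours Mir106b and Mir93 differed by −0.35 ± 0.25 and 0.06 ± 0.069. Mir92b, which has the seed of Mir25 and lies elsewhere, had 4.96, 5.32 and 5.56 against 5.74, 5.77 and 5.73 without overlap (0.46 ± 0.15, limma's adjusted p = 0.232). Over the 14 genes 0 passed, 3 were higher and 1 lower by limma's unadjusted p of 0.05 (6.97% and 7.91% of all named probe sets), and the median difference was 0.084.

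Of 34 miRNA genes known to be repressed by MYC, 31 were measured and 4 were members, none of which passed. Mir15a, known for limiting cell cycle and survival genes, had 4.33, 4.30 and 4.04 in controls and 4.04, 3.88 and 3.53 in the knockout-labelled arrays. Its highest value in the second group equalled its lowest control to 2 decimals, and the difference was −0.41 ± 0.15 (limma's adjusted p = 0.284). Mir16-1, its neighbour in the cluster, differed by 0.06 ± 0.18. Mirlet7i, a let-7 gene, had 3.65, 4.05 and 4.19 against 3.86, 4.02 and 3.56 with overlap. Mir23b, next to Mir27b, had 4.20, 4.28 and 4.52 against 4.26, 4.27 and 4.01. Over the 31 genes 0 passed, 1 was higher (Mir150, 0.59 ± 0.23) and 1 lower (Mir15a) at an unadjusted p under 0.05 (6.97% and 7.91% of all named probe sets), and the median difference was −0.036, with most levels below the array medians (median 1.89).

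Mir23a and Mir27a, neighbours in a cluster on chromosome 8, had the highest SDs of all 100 members among the knockout-labelled arrays. Mir23a had values of 3.04, 4.04 and 5.13 in those arrays and 4.45, 3.73 and 4.14 in controls. Mir27a had 4.53, 4.98 and 5.74 against 4.98, 4.83 and 4.71. In both genes replicate 1 of the knockout-labelled arrays was lowest and replicate 3 highest, and the SDs of 1.04 and 0.612 exceeded the differences of −0.04 and 0.24. The third gene of the cluster, Mir24-2, did not follow this order, with 1.69, 1.31 and 1.48 at a level below the lower quartiles of the arrays (2.04 to 2.13). On chromosome 13, Mir27b had 5.22, 4.84 and 5.23 in controls and 4.70, 4.87 and 4.93 in the knockout-labelled arrays, a difference of −0.26 ± 0.13 that did not pass (limma's adjusted p = 0.383).

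**Figure D4:**
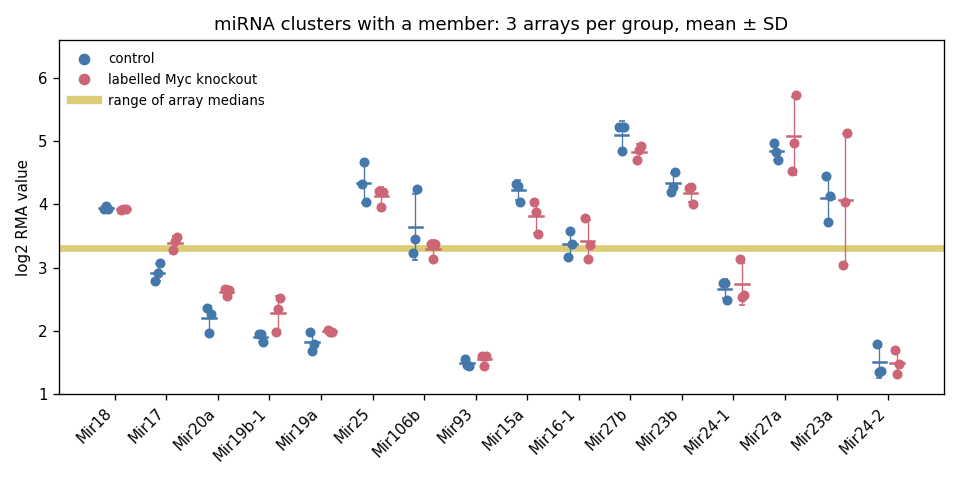
Log2 RMA values (vertical axis) of miRNA genes in clusters that hold a member, 3 arrays per group as points with bars for mean ± SD, ordered by cluster. Mir18 stayed at 3.91 to 3.98 while Mir17 and Mir20a had higher values in the knockout-labelled arrays without passing, and Mir23a spanned 3.04 to 5.13 within that group.

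A cluster on the plus strand of chromosome 12, part of a known imprinted domain, held 3 members. Mir673 had 5.61, 5.81 and 6.04 in controls and 6.10, 6.08 and 5.86 in the knockout-labelled arrays, with overlap. Mir665 had 3.68, 3.54 and 3.78 against 4.20, 3.94 and 3.89, without overlap (0.34 ± 0.10, limma's adjusted p = 0.220, and a member only through the knockout-labelled arrays), and Mir540 differed by −0.03 ± 0.11. A second cluster of that chromosome held Mir134 and Mir329, which differed by −0.01 ± 0.10 and 0.17 ± 0.26.

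A fixed list held 26 miRNA genes known for other cell types, of which 22 were measured. Of these, 3 were members, beside 100 of all 529 measured miRNA genes. They were Mir9-3 of neural cells, Mir375 of endocrine cells and Mir143 of smooth muscle and fibroblasts. The list is not complete, since Mir486, described above, is not on it. Mir143 had 4.20, 4.21 and 4.59 in controls and 4.64, 4.61 and 4.62 in the knockout-labelled arrays, without overlap (0.29 ± 0.11, limma's adjusted p = 0.303). Mir9-3 and Mir375 differed by 0.15 ± 0.085 and −0.21 ± 0.17, and Mir145a, the known neighbour of Mir143, lay between 0.91 and 1.17. The mean log2 level of all 22 was 1.85 to 1.88 in controls and 1.91 to 1.94 in the knockout-labelled arrays, and 0 passed. By limma's unadjusted p of 0.05, 3 were higher and 0 lower (6.97% and 7.91% of all named probe sets): Mir143, and outside the 100 Mir9-1 (0.35 ± 0.072) and Mir122 (0.39 ± 0.088), the latter known from liver. The part of these cells in the results was not tested.

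Many members lie inside other genes, and none of the measured same-strand host genes passed the test. By RefSeq gene intervals, 48 members were inside a gene of the same strand, 7 only inside a gene of the opposite strand, 17 inside a gene whose strand was not known here, and 28 in none. Whether a member is exonic or intronic was not analysed here. In 45 same-strand pairs with a measured host (44 different hosts), 0 hosts passed the test. By limma's unadjusted p of 0.05, 1 host was higher and 2 were lower (6.97% and 7.91% of all named probe sets). The median host difference was 0.0085. Across the 45 pairs the differences had a Pearson r of 0.30 and a Spearman rho of 0.08, a description over genes that share 6 arrays.

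Members with some of the largest differences had hosts with differences of at most 0.09 in size. Ifrd1, host of Mir1938 and a gene of a transcriptional coregulator, had log2 values of 6.83, 6.94 and 6.91 in controls and 6.91, 7.04 and 6.96 in the knockout-labelled arrays, a difference of 0.08 ± 0.064. Srrm2, host of Mir5125 and a splicing factor gene, had 10.14, 10.11 and 10.27 against 10.07, 10.07 and 10.11 (−0.09 ± 0.065). Pdia4, which encodes a disulfide isomerase of the endoplasmic reticulum and hosts Mir704, had 9.87, 9.87 and 9.74 against 9.87, 9.88 and 9.86 (0.04 ± 0.060). Apba3, host of Mir3057, differed by −0.03 ± 0.053. In these 4 host genes the groups overlapped, while they did not in the miRNA gene inside. The difference between miRNA gene and host was not tested.

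For 2 members at an unadjusted p under 0.05, the host was past that p as well and had the same sign, out of 15 such members with a measured same-strand host. Dleu2, the long noncoding host of Mir15a, had 3.72, 3.59 and 3.66 in controls and 2.93, 3.57 and 3.16 in the knockout-labelled arrays, a difference of −0.44 ± 0.16 beside −0.41 ± 0.15 for Mir15a (limma's adjusted p = 0.284 for both). The host of Mir339, a protein-coding gene with a RIKEN name, differed by 0.46 ± 0.18 beside 0.81 ± 0.32 (limma's adjusted p = 0.316 and 0.311). Rnf213 had the opposite arrangement: the host differed by −0.37 ± 0.077 (limma's adjusted p = 0.111) and Mir1932 inside it by 0.05. On the opposite strand of Mir568 lies Tigit, an inhibitory receptor gene of lymphocytes, which rose from 7.52 ± 0.083 to 8.04 ± 0.045 (limma's adjusted p = 0.0396), while Mir568 differed by 0.14 and did not pass.

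**Figure D5:**
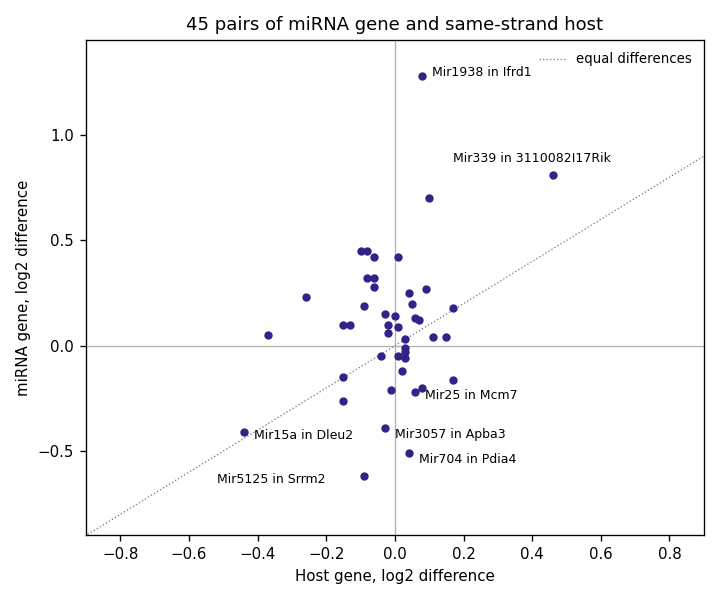
Log2 difference of the miRNA gene (vertical axis) against that of the gene that contains it on the same strand (horizontal axis), knockout-labelled arrays minus control, for 45 pairs. Mir1938 stands at 1.28 with its host Ifrd1 at 0.08, and Mir15a and its host Dleu2 lie near the line of equal differences.

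Genes of the machinery that makes miRNAs did not pass the test. Of 25 processing genes 24 were measured, with 0 past the threshold, 2 higher and 3 lower by limma's unadjusted p of 0.05 (6.97% and 7.91% of all named probe sets), and a median difference of 0.0092. That median was −0.015 under median centring, 0.037 under cyclic loess and −0.019 without control replicate 2. Dicer1, the enzyme that cuts the precursor, had a difference of 0.23 ± 0.060 (limma's adjusted p = 0.174), and Drosha, Dgcr8 and the export factor Xpo5 had −0.01 ± 0.069, 0.08 ± 0.059 and 0.05 ± 0.065. Ddx17, a helicase cofactor of Drosha, differed by −0.43 ± 0.076 (limma's adjusted p = 0.0820), and Prkra, a partner of Dicer, by −0.34 ± 0.11. Ddx5, the paralog of Ddx17 and host of Mir3064, differed by 0.08 ± 0.066.

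The genes of the silencing complex were mostly on the lower side, with none past the threshold. Of 24 measured, 1 had a positive difference (Ddx6, at 0.00), and the median was −0.071 (−0.0317 with cyclic loess). Among other genes in the members' range of level, 40.1% were positive and the median was −0.035. By limma's unadjusted p of 0.05, 0 silencing genes were higher and 5 lower. The background shares were 6.97% and 7.91% over all named probe sets, and 7.62% and 14.8% in that range of level. The 5 were Tnrc6c (−0.27 ± 0.054) and Tnrc6b (−0.18 ± 0.057), which encode GW182 scaffold proteins, the helicase gene Mov10 (−0.43 ± 0.10), and Pan2 (−0.42 ± 0.11) and Pan3 (−0.22 ± 0.059) of a deadenylase. Limma's adjusted p for these lay between 0.1 and 0.241. Ago2, the slicing Argonaute, differed by −0.04 ± 0.055, and Ago1 and Ago3 by −0.26 ± 0.15 and −0.05 ± 0.080.

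The rule used neither sequence nor position, and the members are described here by both, with no test. Hairpin sequences were available for 83 members and 370 of the others. The median GC content of the hairpin was 57.5% (quartiles 49.3% and 62.5%) in members and 47.6% (42.3% and 53.2%) in the others, with median lengths of 81 and 84 bases. Across all 453 miRNA genes with a hairpin sequence, level and GC content had a Pearson r of 0.44 and a Spearman rho of 0.50. These points share their arrays, and the part of probe base composition in this relation was not tested. Within the members, the difference between groups and GC content had a Pearson r of −0.05 over 83 genes.

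Another measured miRNA gene lay within 10 kb on the same strand for 17 of the 100 members and 37.8% of the others, counting genes without a known strand as having none. A location inside a gene was found for 72 of 100 members and 67.8% of the others. By chromosome, 12 and 7 held 12 members each and 8 held 8. Exactly equal values on at least 2 arrays occurred in 22 members, 48% of the other miRNA genes and 38.8% of all named probe sets.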

How the data were processed

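The authors deposited 1 table of log2 values for 25206 probe sets on 6 arrays; RMA and limma 3.14.4 are named in the submitters' processing notes. RMA subtracts background, gives all arrays the same distribution and summarises probes, so a shift of all RNAs together is removed. Which array was used, and how its probe sets were defined, is not given in the sources used here. Gene symbols came from an annotation table keyed by gene number (23185 with 1 symbol, 0 with several, 2021 with none, which were left out). Hosts, clusters and sequences came from RefSeq tables for GRCm38.p6. Arrays have no read depth; 3 arrays per group limit the precision.

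Differences were fitted for all 23185 genes in R 4.3.3 with limma 3.58.1 (lmFit, eBayes, no trend), two-sided, passing at a Benjamini-Hochberg adjusted p under 0.05, and tested on simulated data. Members and lists were chosen with earlier results of these data known, so no p was adjusted over a list. Named were all members past the threshold, the 10 brightest, and the 6 most positive and 6 most negative. Members of the lists and of clusters with 3 members were named too, as were the 2 smallest p of the processing and silencing lists. Hosts were named for some of these members and not for all. Genes named beyond this, such as Mir17, Mir92b, Rnf213 and Tigit, were chosen after their values were seen. Figures used matplotlib 3.10.9.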

Additional observations from a re-analysis of the deposited data

How the results depend on the processing

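The median difference of the members stayed positive in 18 alternatives (0.0732 to 0.144). Some of these could not move it. Changing only the prior variance, the replicate block or the set of fitted probe sets leaves each difference as it is. The counts at an unadjusted p under 0.05 lay between 18 and 27 higher and 4 and 8 lower in 15 alternatives. Median centring moved the median of all genes from 0.0077 to −0.017 and cyclic loess to 0.0037; relative to it the members stood at 0.0928 and 0.140. Calls past the adjusted threshold moved more. An intensity trend in the prior variance gave 4 higher and 3 lower, array weights 2 and 1, median centring 2 and 1, cyclic loess 2 and 0, genes at or above the median level 5 and 3, and those at or above the lower quartile 2 and 2. An adjusted p under 0.01 left 0 and under 0.10 gave 4 and 3. Leaving out each array gave 0 to 1 higher and 0 lower. A fit with the replicate number as a block called 0 members (Mir142: limma's adjusted p = 0.119). Deviations of same-numbered arrays from their group means had correlations of −0.07, −0.01 and −0.02. The labels do not say whether same-numbered samples were handled together, and correlations over so few arrays cannot decide it. The median of the processing genes moved from 0.0092 to −0.0152 under median centring, 0.0373 under cyclic loess and between −0.0187 and 0.0202 with 1 array left out. The causes were not tested. With 3 arrays per group, small differences in dim probe sets cannot be resolved.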
